A study of Mus musculus with 49 samples.

Results

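Toll-like receptors and their partner molecules were followed in CT26 tumours. CT26 is a colorectal carcinoma line of the mouse, and the hosts were of the BALB/c strain. The 9 genes were Cd180, Ly86, Ly96, Cd14, Tlr2, Tlr4, Tlr7, Tlr9 and Tlr13. They were picked by symbol from the 39179 genes of the count table, and each symbol matched 1 row. Cd180 and Ly86 were already known from these data to be higher with the combination than with anti-PD-1, so that contrast is given for every gene as values without a test. Toll-like receptors are innate sensors that bind microbial products or nucleic acids and signal through the adaptor Myd88 or Ticam1 to cytokine and interferon genes. Tlr4 works as a complex with Ly96 (MD-2), and Cd14 hands lipopolysaccharide to it. Cd180 (RP105) resembles Tlr4 outside the cell but lacks its signalling domain, pairs with Ly86 (MD-1) as Tlr4 pairs with Ly96, and is known from B cells, macrophages and dendritic cells.

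RNA of 49 bulk tumours was read as 3′-end libraries. The groups were 16 tumours given anti-PD-1 with celecoxib (the combination; 12 labelled R and 4 labelled NR), 17 given anti-PD-1 (4 R and 13 NR), 7 given celecoxib and 9 given vehicle, a mixture of DMSO-PEG400 and water. All celecoxib and vehicle tumours were NR, and the labels do not define R and NR. Celecoxib inhibits COX-2, the prostaglandin-producing enzyme encoded by Ptgs2, and was dosed daily at 30 mg/kg. The antibody blocks PD-1, an inhibitory receptor of T cells, and was given in 2 doses of 200 µg. Treatment began 7 days after the injection of tumour cells and ran for 7 days. The tissue label places the tumours at day 7 of treatment and the extraction protocol at day 4, so their age at sampling is uncertain. No genetic alteration of the mice is stated. The labels do not say that each tumour came from a different mouse, so each p-value reflects the spread between samples, which may be partly technical.

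Total counts ran from 4251251 to 13671294 per tumour, with a median of 7670623. In 16 tumours the mean log2 CPM of skeletal muscle markers was above 3, or that of skin or adipocyte markers above 5, and these were 7 combination, 5 anti-PD-1, 2 celecoxib and 2 vehicle tumours. Combination replicate 15, with a muscle mean of 7.48, was among them. All 14 macrophage markers and all 9 T cell markers passed the filter on low counts. Levels are CPM, counts scaled to a common library size after TMM normalization (trimmed mean of M-values). Csf1r, the receptor for the macrophage growth factor CSF1, served as a yardstick for macrophage-lineage RNA. In bulk RNA, fewer cells of a type and less RNA per cell cannot be told apart.

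Promoters are shown for the pair with the highest fold change between the combination and anti-PD-1, Cd180 and Ly86, and for the pair of receptors that varied most closely together, Tlr2 and Tlr13. Each runs from 250 bases before to 50 bases after the start of transcription, on the RefSeq assembly GRCm38.p6, and capitals mark motif matches. Those of Cd180 (chr13:102693297-102693596, plus strand), Ly86 (chr13:37345095-37345394, plus strand), Tlr13 (chrX:106143025-106143324, plus strand) and Tlr2 (chr3:83841559-83841858, minus strand) read as follows.
Cd180: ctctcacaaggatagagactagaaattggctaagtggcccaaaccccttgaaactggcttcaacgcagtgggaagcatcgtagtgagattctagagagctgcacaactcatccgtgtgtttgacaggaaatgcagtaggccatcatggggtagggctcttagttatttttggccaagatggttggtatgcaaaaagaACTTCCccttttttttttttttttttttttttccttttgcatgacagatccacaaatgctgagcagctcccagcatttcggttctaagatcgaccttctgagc
Ly86: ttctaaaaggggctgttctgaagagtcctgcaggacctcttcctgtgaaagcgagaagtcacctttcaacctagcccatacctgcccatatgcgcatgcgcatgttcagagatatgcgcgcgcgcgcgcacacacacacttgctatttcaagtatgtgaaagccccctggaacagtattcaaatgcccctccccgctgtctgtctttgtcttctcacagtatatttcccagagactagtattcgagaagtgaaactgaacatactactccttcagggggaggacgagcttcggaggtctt
Tlr13: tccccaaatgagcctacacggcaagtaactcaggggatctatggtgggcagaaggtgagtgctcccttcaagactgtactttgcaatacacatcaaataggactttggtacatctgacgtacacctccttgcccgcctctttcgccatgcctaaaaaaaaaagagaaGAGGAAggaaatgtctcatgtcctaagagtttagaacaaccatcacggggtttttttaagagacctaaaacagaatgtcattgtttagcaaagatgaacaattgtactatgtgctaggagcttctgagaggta
Tlr2: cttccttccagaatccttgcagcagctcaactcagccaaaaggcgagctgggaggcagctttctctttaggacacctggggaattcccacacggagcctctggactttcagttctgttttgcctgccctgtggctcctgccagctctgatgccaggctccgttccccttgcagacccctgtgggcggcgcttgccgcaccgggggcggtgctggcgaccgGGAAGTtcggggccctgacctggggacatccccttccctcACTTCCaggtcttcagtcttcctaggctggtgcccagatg
In all 6 motifs were searched on both strands. GGAAGT, a core bound by ETS-family factors, occurred in 23.7% of 32544 mouse promoters of the same length, and GAGGAA, a core of the myeloid ETS factor PU.1, in 28.1%. The others were the interferon-stimulated response element (GAAA and GAAA with 2 bases between them, 3.45%), the interferon-gamma activated site (TTC and GAA with 3 bases between them, 8.33%), the octamer ATGCAAAT (1.75%) and a kappaB core (GGG and TTTCC with 2 bases between them, 1.61%). GGAAGT and GAGGAA overlap where GAGGAA is followed by GT. The printed Cd180 window held GGAAGT on the opposite strand at bases 198 to 203. Another entry of Cd180, chr13:102693308-102693607, overlaps it and held the same letters at its bases 187 to 192. The Tlr13 window held GAGGAA at bases 168 to 173, and the Tlr2 window held GGAAGT at bases 221 to 226 and, on the opposite strand, at bases 261 to 266. No motif was found in the Ly86 window. The Tlr9 window, which is not printed, held both ETS cores and, at bases 179 to 186, the octamer. A match is a description of letters and not evidence of a bound site.

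Cd180 and Ly86 lie on the same chromosome, at chr13:102693558-102739629 and chr13:37345208-37419036 of GRCm38, far apart. Cd180 ranged from 4.06 to 87.1 CPM in combination R tumours with a median of 33.9, and the 4 combination NR tumours had 15.5, 32.6, 8.63 and 21.7 CPM. The 4 anti-PD-1 R tumours had 4.07, 2.11, 14.2 and 26.3 CPM, and the anti-PD-1 NR tumours 5.24 to 26.9 with a median of 11.3. Celecoxib tumours had 7.18 to 34.8 CPM with a median of 14.9, and vehicle tumours 4.75 to 24.4 with a median of 14.9. Every pair of groups overlapped, yet 9 of 16 combination tumours lay above all 17 anti-PD-1 tumours, and 9 of 16 lay above all 9 vehicle tumours. The 3 highest tumours, at 87.1, 59.2 and 47 CPM, were all combination R. Mean Cd180 was 31 ± 21.6 CPM with the combination (SD, n = 16), 12.2 ± 7.94 with anti-PD-1 (n = 17), 18.6 ± 11.4 with celecoxib (n = 7) and 13.5 ± 6.06 with vehicle (n = 9).

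Ly86, the secreted partner that Cd180 needs at the cell surface, had 2.47 to 67.6 CPM in combination R tumours with a median of 32.8. The combination NR tumours were close together at 20.1, 19.9, 22.5 and 19.3 CPM. The anti-PD-1 R tumours had 8.48, 2.60, 11.9 and 17.4 CPM, and the anti-PD-1 NR tumours 3.18 to 23.7 with a median of 11.3. With celecoxib the range was 6.69 to 33.1 CPM with a median of 16.9, and with vehicle 2.75 to 19.1 with a median of 11.9. The 4 combination NR tumours lay above all 4 anti-PD-1 R and all 9 vehicle tumours, with 19.27 against 19.13 CPM at the closest to vehicle. How many of all genes separate these few tumours was not determined. The treatments as a whole overlapped, with 7 of 16 combination tumours above all anti-PD-1 tumours and 12 of 16 above all vehicle tumours. By median, both genes ranked combination R, then combination NR, celecoxib, vehicle, anti-PD-1 NR and anti-PD-1 R, and each neighbouring pair of groups overlapped in range.

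**Figure D1:**
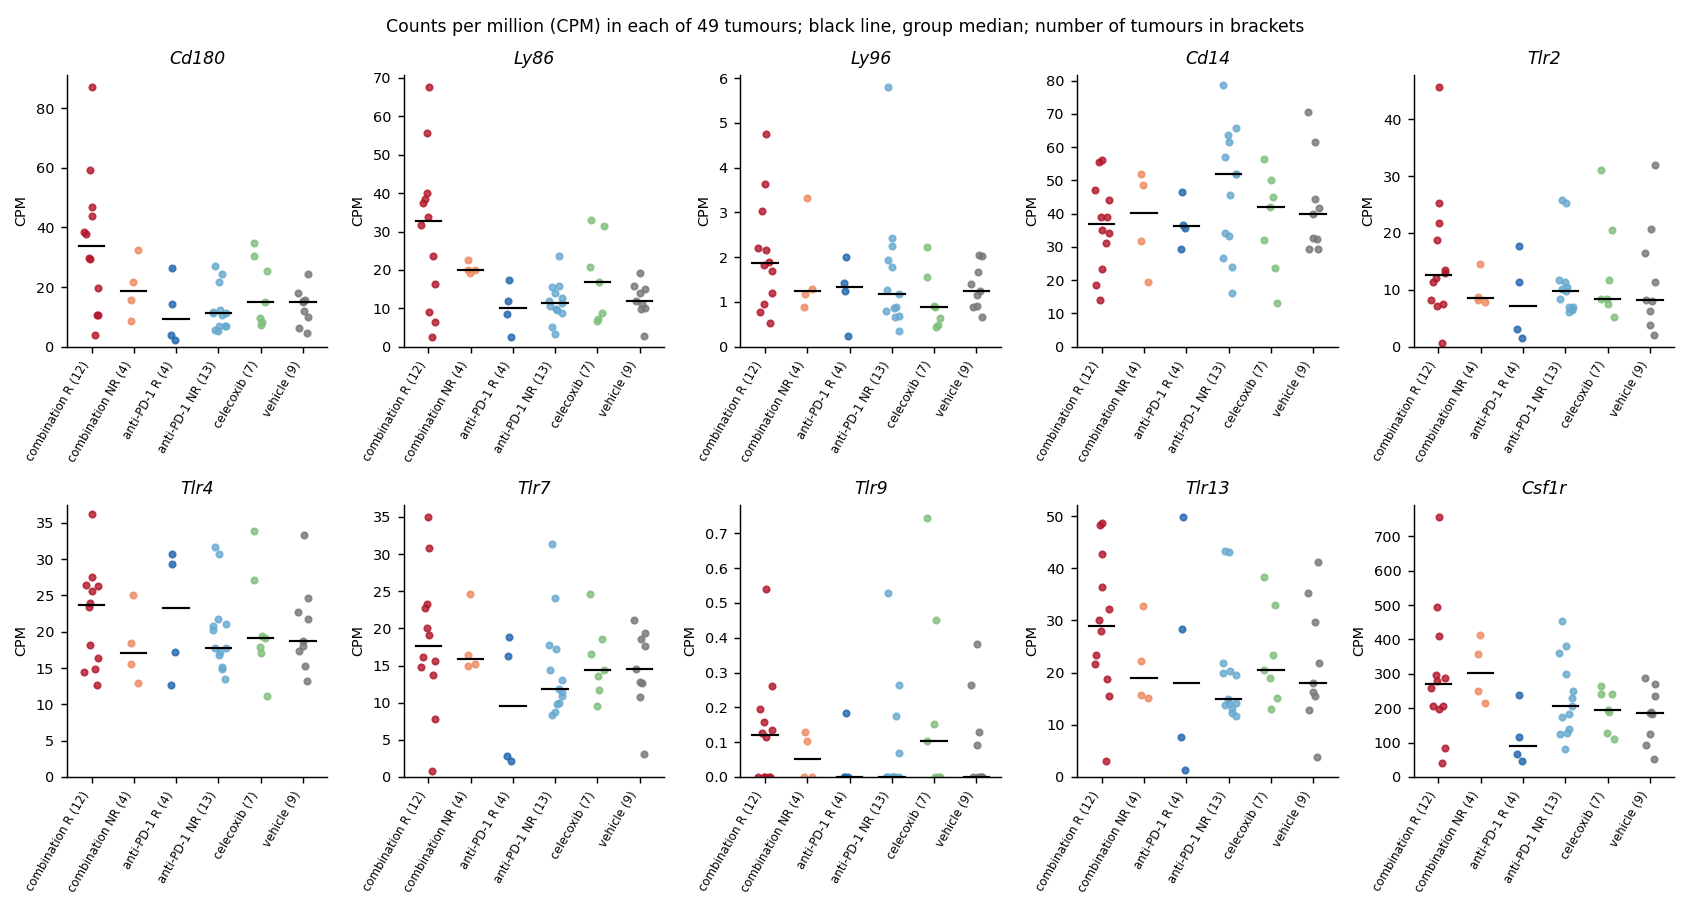
CPM of the 9 genes and Csf1r in each tumour (vertical axes, linear, each with its own scale), by treatment and response label (horizontal axes); points are tumours and black lines are medians. Cd180 and Ly86 reach 87.1 and 67.6 CPM in combination R tumours, whereas Tlr9 reaches at most 0.744 CPM in all 49.

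Between the combination and anti-PD-1, the log2 fold change was 1.34 for Cd180 (SE 0.324) and 1.30 for Ly86 (SE 0.297), against a median of -0.0022 over all 13726 genes tested. Of all genes, 0.503% were called in this contrast at an adjusted p of 0.05 (edgeR), and nothing is read from that share for genes chosen with the contrast in view. Leaving out each of the 33 tumours in turn gave 1.16 to 1.45 for Cd180 and 1.16 to 1.41 for Ly86. Without the 16 tumours holding other tissue the fold changes were 1.54 and 1.54. Among R tumours alone, the combination exceeded anti-PD-1 by 1.55 for Cd180 (SE 0.577) and 1.56 for Ly86 (SE 0.538) on the log2 scale. Among NR tumours these differences were 0.67 (SE 0.507) and 0.81 (SE 0.466).

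Csf1r had a smaller positive fold change. It ranged from 41.1 to 756 CPM with the combination (median 269), from 47.6 to 453 with anti-PD-1 (median 184), from 109 to 265 with celecoxib (median 194) and from 52.4 to 287 with vehicle (median 186). Its log2 fold change between the combination and anti-PD-1 was 0.54 (SE 0.272), and among R tumours alone 1.32 (SE 0.475). Counted per Csf1r count, the change between the combination and anti-PD-1 was 0.76 for Cd180 (SE 0.303) and 0.57 for Ly86 (SE 0.303), against a median of -0.41 over all genes. Among R tumours the per-Csf1r differences were 0.55 (SE 0.502) and 0.23 (SE 0.497), the first about as large as its error and the second smaller than it. With the Csf1r level as a covariate in place of the ratio, the combination exceeded anti-PD-1 by 0.90 for Cd180 and 0.84 for Ly86.

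Markers of some other cells also had positive fold changes, as did 49.6% of all genes. The sum of adipocyte markers went the other way, with a median of 76.1 CPM with the combination and 121 with anti-PD-1. Of the 14 macrophage markers, 12 had a positive fold change between the combination and anti-PD-1, with a median of 0.43 on the log2 scale. All 9 T cell markers were positive, with a median of 1.27, and the sum of T cell markers had a median of 114 CPM in combination R tumours, 53.5 in combination NR, 34 in anti-PD-1 R, 28.3 in anti-PD-1 NR, 39.2 with celecoxib and 55.4 with vehicle. Per Csf1r count the 9 T cell markers ran from -0.06 to 1.21 between the combination and anti-PD-1. B cells are a known source of Cd180. Of 11 B cell markers 4 passed the filter, and the sum of all 11 ran from 5.08 to 32.6 CPM in combination R, 12.6 to 23.3 in combination NR, 4.21 to 26.6 in anti-PD-1 R, 10.5 to 31 in anti-PD-1 NR, 9.72 to 29.2 with celecoxib and 5.13 to 25.7 with vehicle. Counts of 0 were found in 10 or more tumours for 7 of the 11, among them Cd79a (46 tumours), Fcer2a (34) and Ms4a1 (21). Between the combination and anti-PD-1, log2 fold changes were 0.78 for Cd22 (SE 0.468), 0.64 for Cd79b (SE 0.396) and 0.51 for Fcrla (SE 0.314). Bank1, the other measured marker, was at -0.05 (SE 0.244). The sum of conventional dendritic cell markers had a median of 71.5 CPM with the combination and 50.3 with anti-PD-1. The part of these cells in the Cd180 and Ly86 values was not tested.

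Mast4, on the other strand across Cd180, averaged 90.7 ± 23.2 CPM with the combination (SD, n = 16) and 95 ± 21.8 with anti-PD-1 (n = 17). Its log2 fold change was -0.07 (SE 0.116), and over the 49 tumours its deviations from group means had an r of -0.47 with those of Cd180. The kit keeps the strand, but how the counting used it is not stated, so reads of the pair may be mixed. The same limit holds for Csf1r, across which Hmgxb3 lies on the other strand. Hmgxb3 averaged 25.2 ± 5.81 CPM with the combination and 26.7 ± 6.74 with anti-PD-1, and its deviations had an r of -0.43 with those of Csf1r.

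**Figure D2:**
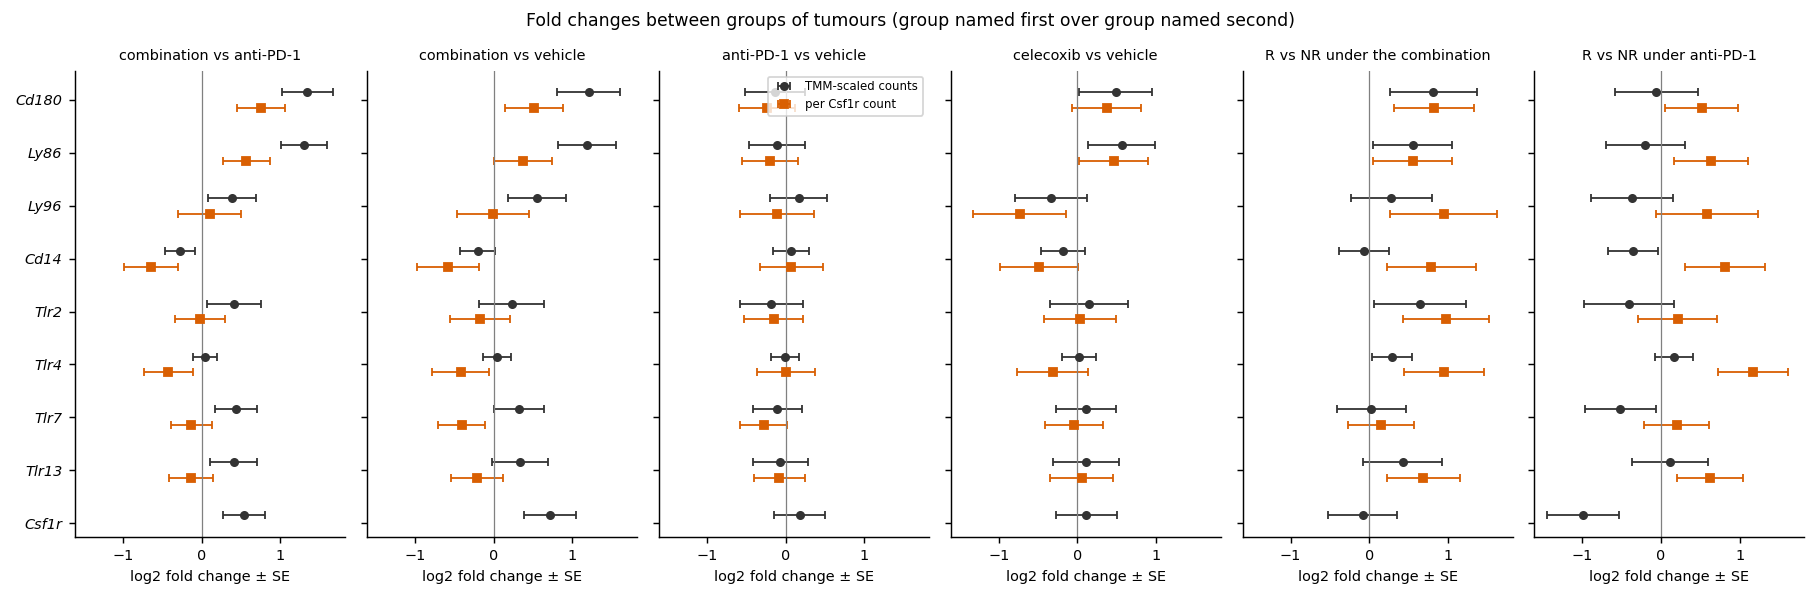
Log2 fold changes (horizontal axes) with standard errors (bars) for 8 genes and Csf1r (rows) in 6 comparisons, the first-named group over the second; black circles are TMM-scaled counts and orange squares are counts per Csf1r count. Cd180 and Ly86 stand at 1.34 and 1.30 between the combination and anti-PD-1, and per Csf1r count at 0.76 and 0.57.

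Against vehicle, 0 of the 8 genes that passed the filter were called with the combination (edgeR, adjusted p of 0.05), and 0.0729% of all 13726 genes were. Cd180 had a log2 fold change of 1.21 (SE 0.401, adjusted p = 0.179, edgeR) and Ly86 one of 1.19 (SE 0.369, adjusted p = 0.159, edgeR), and these 2 genes had an unadjusted p under 0.05. DESeq2 and limma-voom called 0 as well. Without the tumours holding other tissue, edgeR gave Cd180 1.60 (adjusted p = 0.0326) and Ly86 1.76 (adjusted p = 0.00433). It then called 1145 genes in all, against 10 in the fit of all tumours. Leaving out combination replicate 15 alone called Ly86 (log2 fold change 1.29, adjusted p = 0.0491, edgeR). That tumour had the lowest Ly86 of all, at 2.47 CPM, so leaving it out raises the fold change. Over the 25 tumours left out in turn, 2 to 157 of all genes were called, against 10 with all tumours. Csf1r had 0.72 (SE 0.334, adjusted p = 0.296, edgeR). The comparison with vehicle shares its combination tumours with the contrast above, in which Cd180 and Ly86 were already known to be higher. Its p-values for these 2 genes are therefore not independent of how they were chosen, and nothing is read from their calls. Per Csf1r count, 0 of 8 genes and 0% of all genes were called (edgeR; 0 of the 8 had an unadjusted p under 0.05), with Cd180 at 0.52 (SE 0.369) and Ly86 at 0.37 (SE 0.367).

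Each drug alone left the 8 genes uncalled. With anti-PD-1 against vehicle edgeR called 0 of 8, beside 0.0874% of all genes, and 0 had an unadjusted p under 0.05. Cd180 was at -0.14 (SE 0.382) and Ly86 at -0.11 (SE 0.351), with 95% intervals of -0.90 to 0.63 and -0.82 to 0.60 on the log2 scale. With celecoxib against vehicle edgeR called 0 of 8, beside 0% of all genes, and 0 had an unadjusted p under 0.05. Cd180 was at 0.49 (SE 0.463) and Ly86 at 0.57 (SE 0.425), with intervals of -0.44 to 1.42 and -0.29 to 1.42. DESeq2 and limma-voom also called 0 in both comparisons. The celecoxib intervals hold changes above 1 on the log2 scale, so a change of that size was not excluded by these data.

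The genes of the Tlr4 complex had smaller fold changes with the combination than Cd180 and Ly86, a difference that was not tested. Tlr4 (chr4:66827584-66930284) ran from 12.7 to 36.2 CPM with the combination (median 20.9), from 12.7 to 31.7 with anti-PD-1 (median 17.7), from 11.2 to 33.9 with celecoxib (median 19.2) and from 13.3 to 33.3 with vehicle (median 18.8). Its log2 fold change was 0.04 between the combination and anti-PD-1 (SE 0.151) and 0.04 between the combination and vehicle (SE 0.181, 95% interval -0.33 to 0.40). Ly96 (chr1:16688051-16709611), the secreted partner of Tlr4, was close to the limit of the data, with 2 to 44 counts per tumour. It had 0.537 to 4.76 CPM with the combination (median 1.76), 0.248 to 5.80 with anti-PD-1 (median 1.24), 0.451 to 2.23 with celecoxib (median 0.898) and 0.654 to 2.06 with vehicle (median 1.25). Its fold changes were 0.38 (SE 0.302) against anti-PD-1 and 0.55 (SE 0.370) against vehicle.

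Cd14, on mouse chromosome 18, was the gene whose fold change with the combination was negative against both anti-PD-1 and vehicle. Its range was 14.1 to 56.2 CPM with the combination (median 37.0), 16.2 to 78.6 with anti-PD-1 (median 45.7), 13.2 to 56.6 with celecoxib (median 42.1) and 29.4 to 70.6 with vehicle (median 40.0). The groups overlapped widely, and the log2 fold changes were -0.28 against anti-PD-1 (SE 0.193) and -0.21 against vehicle (SE 0.229, adjusted p = 0.677, edgeR). Per Csf1r count Cd14 was at -0.65 against anti-PD-1 (SE 0.341), where the median gene was at -0.41. Without the tumours holding other tissue the per-Csf1r change against vehicle was -1.56 (adjusted p = 0.00183, edgeR), in a fit that called 9882 genes.

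Tlr2 (chr3:83836272-83841767, minus strand), which recognises bacterial lipopeptides at the cell surface, had 0.726 to 45.6 CPM with the combination (median 11.8), 1.49 to 25.9 with anti-PD-1 (median 9.80), 5.21 to 31.1 with celecoxib (median 8.40) and 2.00 to 32 with vehicle (median 8.14). Combination replicates 13 and 15, both R, were its highest and lowest tumours. The fold change was 0.41 against anti-PD-1 (SE 0.340) and 0.23 against vehicle (SE 0.410).

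The receptors of the endosome sense nucleic acids. Tlr7 (chrX:167304929-167330558, minus strand), a sensor of single-stranded RNA, had 0.871 to 34.9 CPM with the combination (median 16.3), 2.11 to 31.4 with anti-PD-1 (median 11.8), 9.57 to 24.7 with celecoxib (median 14.4) and 3.13 to 21.1 with vehicle (median 14.5). Tlr13 (chrX:106143204-106160493), which in mice senses bacterial ribosomal RNA, had 3.05 to 48.7 CPM with the combination (median 25.7), 1.36 to 49.7 with anti-PD-1 (median 15.0), 13 to 38.3 with celecoxib (median 20.4) and 3.75 to 41.2 with vehicle (median 17.9). In both genes the groups overlapped, although 14 of 16 combination tumours for Tlr7 and 15 of 16 for Tlr13 were above the anti-PD-1 median. Their fold changes against anti-PD-1 were 0.43 (SE 0.266) and 0.40 (SE 0.293), and per Csf1r count -0.13 (SE 0.255) and -0.13 (SE 0.278).

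Tlr9 (chr9:106222598-106226883), the sensor of unmethylated CpG DNA, failed the filter, with 0 counts in 27 of 49 tumours and at most 8. Counts of 0 were found in 7 of 16 combination, 12 of 17 anti-PD-1, 3 of 7 celecoxib and 5 of 9 vehicle tumours. The limit that a count of 0 allows, 3 counts, corresponded to 0.210 to 0.676 CPM, so no difference was detectable at this depth and no fold change is given. The 6 plasmacytoid dendritic cell markers, of cells known for Tlr7 and Tlr9, all passed the filter. They summed to 21 to 86.5 CPM in combination R, 19.3 to 34.7 in combination NR, 6.20 to 60.3 in anti-PD-1 R, 17.4 to 61.7 in anti-PD-1 NR, 25.4 to 83.7 with celecoxib and 10.8 to 55.8 with vehicle.

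Between the response labels none of the 8 genes was called on TMM-scaled counts. Under the combination, R against NR, 0 of 8 genes and 0% of 14247 genes were called (edgeR), and 0 of the 8 had an unadjusted p under 0.05. Cd180 was at 0.82 (SE 0.550, 95% interval -0.29 to 1.93, adjusted p = 0.645, edgeR), with 6 of 12 R tumours above all 4 NR tumours and 1 below them. Ly86 was at 0.55 (SE 0.502), with 8 of 12 R tumours above all NR tumours and 4 below all of them. Tlr2 was at 0.64 (SE 0.586) and the others were between -0.07 and 0.43. Under anti-PD-1 0 of 8 were called, beside 0% of all genes, and 0 had an unadjusted p under 0.05, with Tlr7 at -0.52 (SE 0.452), Tlr2 at -0.41 (SE 0.573) and Cd180 at -0.06 (SE 0.529). Averaged over both treatments 0 of 8 were called, beside 0.0491% of all genes, and 0 had an unadjusted p under 0.05. The difference of R against NR between the combination and anti-PD-1 was positive for 8 of 8 genes and for 53.6% of all genes. In it 0 of 8 and 0% of all genes were called (edgeR), and 0 of the 8 had an unadjusted p under 0.05. This difference was 0.88 for Cd180 (SE 0.762) and 1.05 for Tlr2 (SE 0.820). DESeq2 and limma-voom called 0 of 8 in all 4 of these comparisons. Per Csf1r count the same difference was positive for 4 of the 8 genes and negative for 4, with a median of 0.02. On that scale 22.4% of all genes were positive, and the median gene was at -0.36.

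Under anti-PD-1 Csf1r itself differed by more than any of the 8 genes. The 4 anti-PD-1 R tumours had 67.2, 47.6, 115 and 238 CPM, against 82.3 to 453 in anti-PD-1 NR tumours with a median of 207, a log2 fold change of -0.99 (SE 0.462, adjusted p = 0.757, edgeR). Per Csf1r count, 97.9% of all genes had a positive change between R and NR tumours under anti-PD-1. Per Csf1r count, 34.4% of 14246 genes were called in that comparison, the median gene was at 1.16, and 1 of 8 genes, Tlr4, was called. These 4901 calls became 0 without anti-PD-1 replicate 12 or 14, at most 25 without replicate 2, 4, 7, 11 or 13, 1353 and 2255 without replicates 10 and 5, and 9628 and 9362 without replicates 3 and 17. They numbered 220 without the tumours holding other tissue, 2006 with no filter on low counts and 0 with either covariate. Tlr4 had 18.9, 36.2, 25.5 and 12.9 counts per 100 Csf1r counts in the R tumours, against 4.43 to 26.5 in NR tumours with a median of 8.39, and its log2 change of 1.17 (SE 0.446, adjusted p = 0.0440, edgeR) was close to the median gene. Averaged over both antibody treatments, 62% of genes were called and again Tlr4 was the 1 gene of 8 (1.06, SE 0.343, adjusted p = 0.0267, edgeR), beside a median gene at 0.97. The share of the 8 genes called was at or under that of all genes in both cases. With the Csf1r level as a covariate the 2 Tlr4 changes were 0.43 and 0.41 and neither was called, and without the tumours holding other tissue neither was called. Under the combination, 0 of 8 genes and 0% of all genes were called per Csf1r count (edgeR), and 0 of the 8 had an unadjusted p under 0.05.

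**Figure D3:**
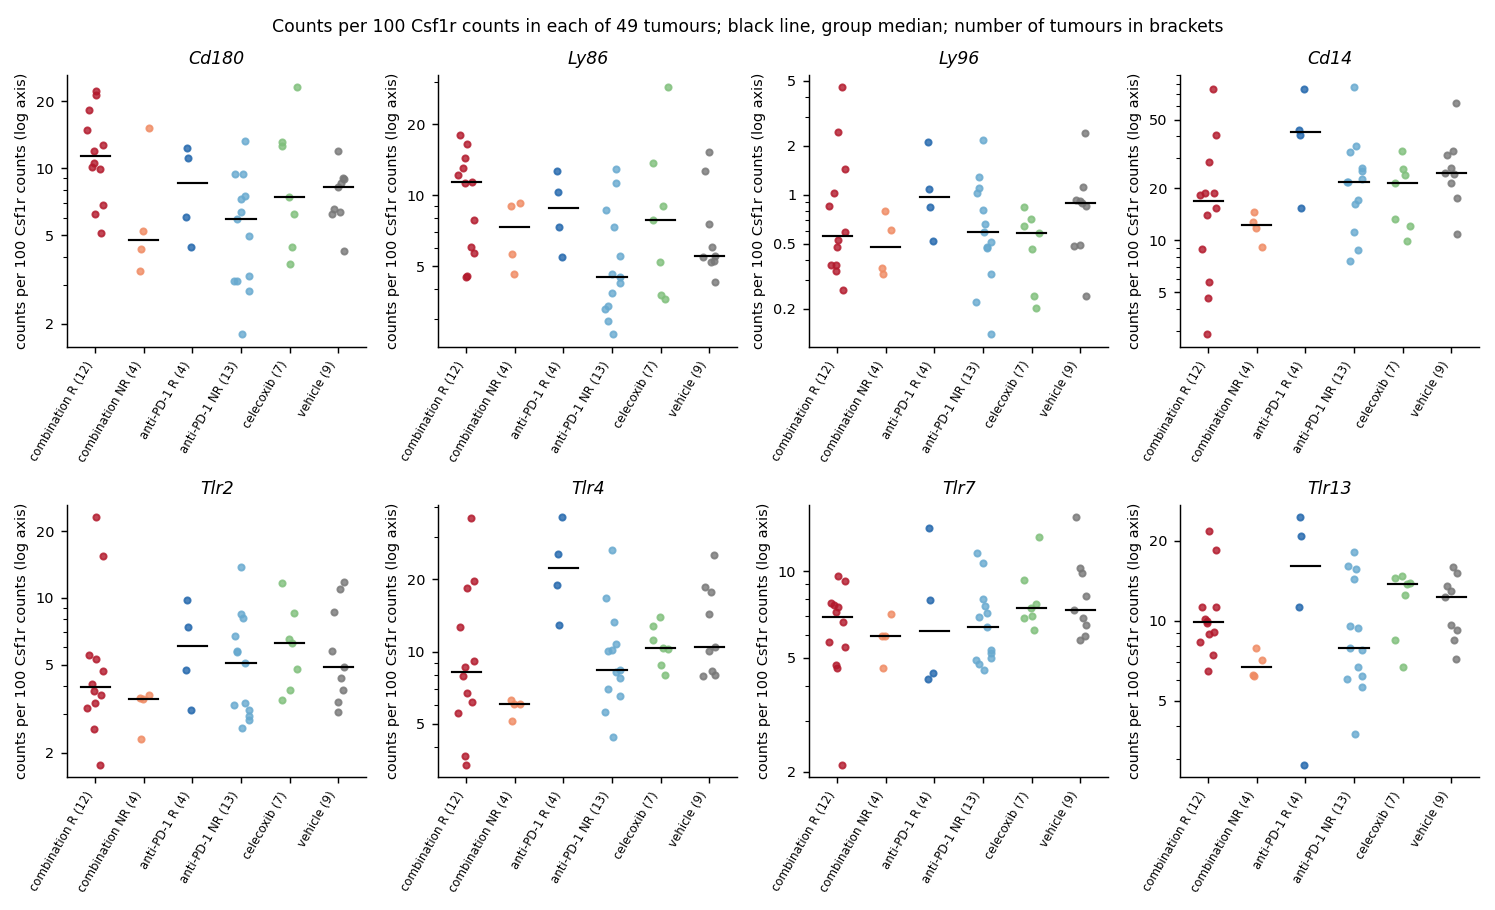
Counts per 100 Csf1r counts of 8 genes in each tumour (vertical axes, logarithmic), by treatment and response label (horizontal axes); points are tumours and black lines are medians. Cd180 and Ly86 have their highest medians in combination R tumours (11.3 each). Tlr4, Cd14, Tlr13 and Ly96 have theirs in the 4 anti-PD-1 R tumours (22.2, 42.1, 16.1 and 0.963), where the median of Csf1r is lowest.

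Within groups the genes varied in how closely they followed Csf1r. For each gene the deviations of log2 CPM from the mean of its treatment and response group were correlated with those of Csf1r over 49 tumours, with 100000 permutations within groups, two-sided, and adjustment over 14246 genes. Of all genes 25.4% were called, 14.2% positively, and 6 of the 8 genes were called, all positively. Tlr7 had a Pearson r of 0.86 and a Spearman rho of 0.816 (permutation p = 1e-05 for each, the smallest that can be given; adjusted p = 0.000201 and 0.000382), and only 15 genes had a higher r. Tlr13 had an r of 0.79 and a rho of 0.759 with the same permutation p and adjusted values. Tlr2 had an r of 0.71 (permutation p = 1e-05, adjusted 0.000201) and a rho of 0.623 (permutation p = 4e-05, adjusted 0.000933).

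With all tumours kept, Cd180 and Ly86 came next by r, whereas by rho Tlr4 came before Ly86. Cd180 had an r of 0.68 (permutation p = 1e-05, adjusted 0.000201) and a rho of 0.584 (permutation p = 0.00011, adjusted 0.00182). Ly86 had an r of 0.68 (permutation p = 2e-05, adjusted 0.000333) and a rho of 0.464 (permutation p = 0.00183, adjusted 0.0136). Tlr4 had an r of 0.53 (permutation p = 0.00024, adjusted 0.00225) and a rho of 0.579 (permutation p = 7e-05, adjusted 0.00135). Its partners were not called on r: Ly96 had an r of 0.34 (permutation p = 0.0290, adjusted 0.0938) and a rho of 0.391 (permutation p = 0.00933, adjusted 0.0437), and Cd14 an r of 0.16 (permutation p = 0.264, adjusted 0.447) and a rho of 0.224 (permutation p = 0.133, adjusted 0.282).

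The 2 tumours farthest from the median of Csf1r, combination replicate 15 and anti-PD-1 replicate 14, both R, were also the 2 lowest for Cd180, Ly86, Tlr2, Tlr7 and Tlr13, and Ly96 was lowest in anti-PD-1 replicate 14. Both were among the tumours with other tissue, with muscle means of 7.48 and 4.68 on the log2 CPM scale, and the part of that tissue in their low values was not tested. Without them, r was 0.81 for Tlr7, 0.74 for Tlr13, 0.57 for Tlr2, 0.56 for Cd180, 0.55 for Ly86 and 0.49 for Tlr4, and the same 6 genes were called on r, with 17.1% of all genes called. For Ly86 the rho was then 0.389 (permutation p = 0.0104, adjusted 0.0598). Ly96 and Cd14 were at 0.34 and 0.17. Without all tumours holding other tissue (33 left), r was 0.59 for Cd180 and 0.50 for Ly86, below 0.63 for Tlr4. The rho of Ly86 was 0.390 (permutation p = 0.0453, adjusted 0.1335). For Tlr2, Tlr7, Tlr13, Tlr4, Ly96 and Cd14 r was higher than with all tumours, at 0.80, 0.88, 0.85, 0.63, 0.47 and 0.31. On r 7 of the 8 genes were called in that setting, Ly96 included, with 24.8% of all genes.

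**Figure D4:**
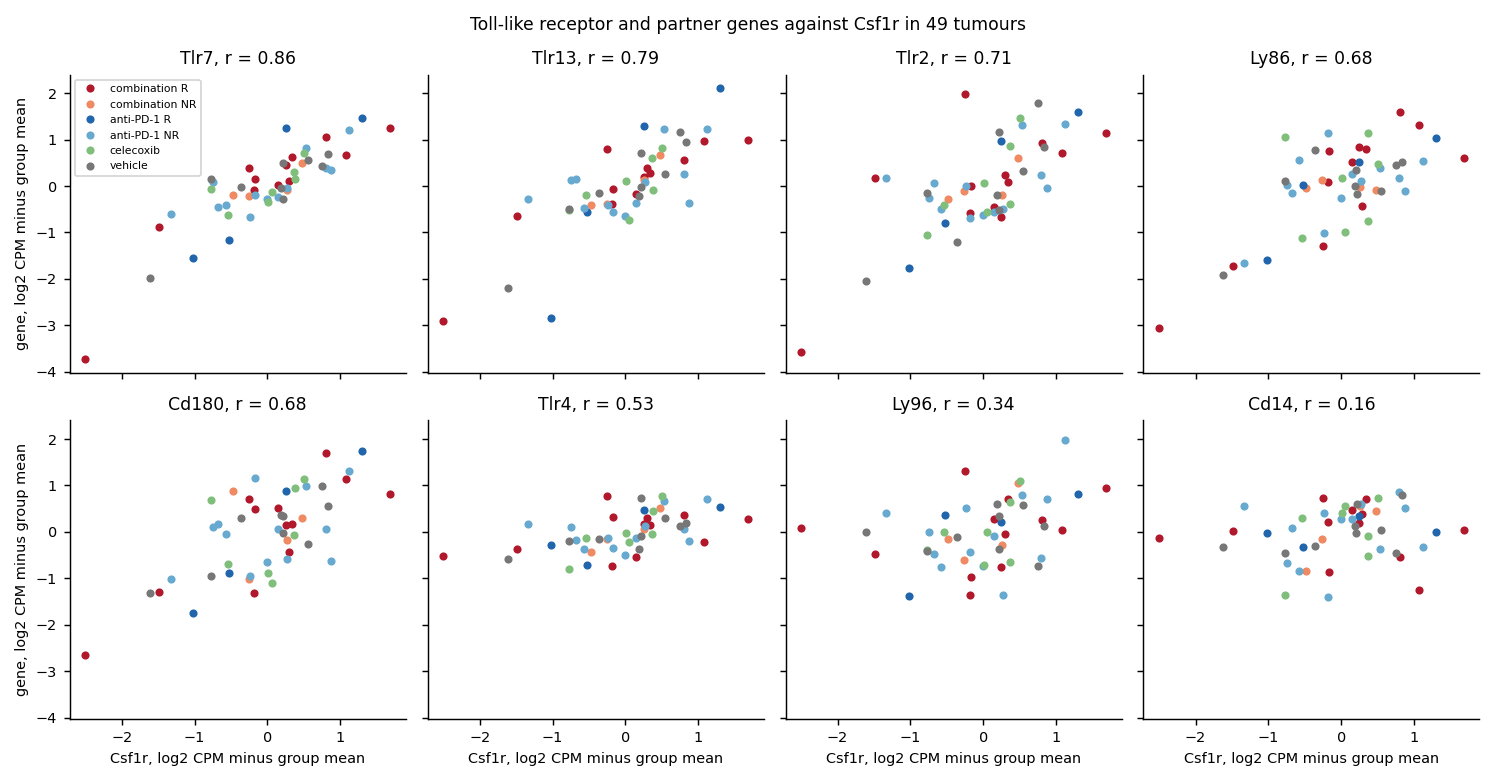
Log2 CPM minus the group mean for Csf1r (horizontal axes) and for 8 genes (vertical axes), 1 point for each of 49 tumours, coloured by treatment and response label. Panels run from the highest Pearson r (Tlr7, 0.86) to the lowest (Cd14, 0.16), and the tumour at the far left is combination replicate 15.

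Among themselves the genes were alike to different degrees, on the same deviations over 49 tumours, which share depth and scaling and are given without a test. Tlr2 and Tlr13 had an r of 0.90 and Tlr7 and Tlr13 one of 0.90. Cd180 and Ly86 were at 0.78, the 448th highest of 14246 genes for Cd180 and the 93rd for Ly86. Tlr4 and Ly96, the other receptor with its partner, were at 0.52. Ly96 and Ly86 were at 0.05, and Cd14 was at -0.26 with Cd180 and -0.30 with Ly86.

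By the same measure the 3 genes most like Cd180 were Cyfip2 (r = 0.95), Stk39 (0.92) and Itgal (0.92), and those most like Ly86 were Slfn2 (0.92), Tle4 (0.91) and Dock2 (0.88). Tlr7 was most like Ms4a6c (0.96), Sla (0.94) and Siglec1 (0.93), and Tlr13 most like Gpr65 (0.95), Myo1f (0.95) and Nckap1l (0.95). Tlr2 was most like Nckap1l (0.92), Tyrobp (0.91) and Myo1f (0.91), and Tlr4 most like B3galnt1 (0.82), Tyrobp (0.80) and Cd53 (0.79). Ly96 was most like Ifngr2 (0.71), Tapbpl (0.69) and Dgka (0.67), and Cd14 most like Nid2 (0.78), Fh1 (0.77) and Washc3 (0.76). Tlr2 and Tlr13 thus had Myo1f and Nckap1l in common, and Tlr2 and Tlr4 had Tyrobp.

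**Figure D5:**
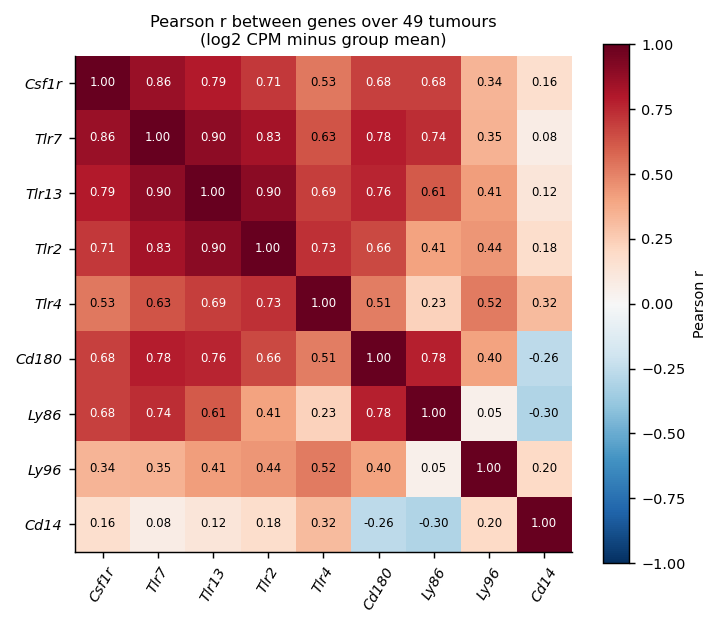
Pearson r between each pair of genes over 49 tumours, from log2 CPM minus the group mean; rows and columns are genes and the colour runs from -1 (blue) to 1 (red). Tlr13 has the highest values with Tlr2 and Tlr7 (0.90 each), and Cd14 is negative with Cd180 (-0.26) and Ly86 (-0.30).

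The rest of the pathway was read from lists of receptors, chaperones, signalling proteins, inhibitors and outputs. With TMM-scaled counts no listed pathway gene was called in any of the 7 comparisons tested (edgeR); of the 56 listed genes, 25 had an unadjusted p under 0.05 between the combination and vehicle, as did 2110 of all 13726 genes. Between the combination and vehicle 6 of 7 other Toll-like receptors had a positive fold change, with a median of 0.41, and 18 of 23 adaptors, kinases and transcription factors, with a median of 0.17, against a median of 0.01 over all genes. Among 9 inhibitors of the pathway 7 were positive (median 0.32), and among the 11 measured cytokine and enzyme outputs 10 were (median 0.96). The 8 genes described here had 7 positive values and a median of 0.33. Of all genes 50.9% were positive. Per Csf1r count, 2 of the 8 were positive and 6 negative, with a median of -0.19. On that scale 8.14% of all genes were positive, and the median gene was at -0.46. Between the combination and anti-PD-1 the medians were 0.51 for the other receptors, 0.15 for the adaptors, kinases and transcription factors, 0.38 for the inhibitors and 0.82 for the outputs, against -0.0022 over all genes and 0.41 for the 8.

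Pathway genes were called per Csf1r count between R and NR tumours. For R against NR averaged over both antibody treatments, 3 of 7 other receptors were called, all higher: Tlr5, the flagellin receptor (2.21, SE 0.657, adjusted p = 0.0267, edgeR), Tlr11 (1.75, SE 0.495, adjusted p = 0.0267, edgeR) and Tlr6, the partner of Tlr2 (0.96, SE 0.386, adjusted p = 0.0341, edgeR). Of 6 chaperones and ligand carriers 4 were called, all higher, among them Lbp, the lipopolysaccharide-binding protein (2.08, SE 0.524), Cd36 (1.50, SE 0.440) and Hsp90b1, a chaperone of Toll-like receptors (1.30, SE 0.454). Of 23 adaptors, kinases and transcription factors 20 were called, all higher, among them the kinase Irak2 (1.43, SE 0.397), the adaptor Ticam1 (1.38, SE 0.417) and Ikbkg (1.72, SE 0.453). Of 9 inhibitors 8 were called, all higher, among them Irak3 (1.67, SE 0.378), Zc3h12a (1.33, SE 0.410) and Nfkbia (1.44, SE 0.393). Of 11 outputs 9 were called, all higher, among them the neutrophil chemokines Cxcl1 (2.24, SE 0.461) and Cxcl2 (2.91, SE 0.688) and Nos2, the inducible nitric oxide synthase (3.85, SE 0.831). The share of all genes called was 62%, or 8832 genes, and the median gene stood at 0.97. The receptors, at 1 of the 8 genes described here and 3 of 7 others, were called at a lower share than that. The whole set of calls hung on single tumours: 0 genes were called without anti-PD-1 replicate 12 or combination replicate 2 or 12, 11 without anti-PD-1 replicate 14 and 263 without combination replicate 15, and leaving out any other tumour gave 5959 to 10834. It was also 0 without the tumours holding other tissue or with the Csf1r level as a covariate, 132 with the macrophage list mean as a covariate and 5607 with no filter on low counts.

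Cell type lists were read in the same comparison, per Csf1r count. These calls come from the same fit, in which no gene was called without anti-PD-1 replicate 12 or combination replicate 2 or 12. In the fit of all tumours 62% of all genes were called and the median gene stood at 0.97. There 5 of 14 macrophage markers were called higher, with a median of 0.47, below the median gene, among them Mertk (1.83, SE 0.449) and Itgam (1.05, SE 0.330). Of 6 plasmacytoid dendritic cell markers 4 were called higher, with a median of 0.82, and of 9 T cell markers 2, with a median of 0.89. The 8 genes described here had a median of 0.66 and 1 call. Of the remaining lists, 2 of 5 monocyte markers were called higher, among them Plac8 (1.05, SE 0.342), 4 of 4 measured neutrophil markers, among them S100a8 (1.69, SE 0.478), 1 of 7 conventional dendritic cell markers, Batf3 (1.05, SE 0.381), 8 of 12 skeletal muscle markers, among them Eno3 (1.25, SE 0.447), and 3 of 6 measured adipocyte markers, among them Plin4 (2.42, SE 0.716). No B cell marker of 4 measured and no skin marker of 4 measured was called. Macrophage, T cell, B cell, monocyte, conventional dendritic cell, skin and adipocyte markers were called at a lower share than all genes. Neutrophil markers were called at a higher share. Plasmacytoid dendritic cell and skeletal muscle markers were called at a share close to that of all genes.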

How the data were processed

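RNA of 49 CT26 tumours was read with a stranded 3′-end kit (QuantSeq FWD), per the labels' protocols. The authors deposited raw counts per Ensembl gene, made with bcl2fastq, STAR and featureCounts on mm10 and GRCm38 per the submitters' processing notes, which also name limma. The sources used here give no versions, annotation release, strand setting or rule for reads that align to several places. Symbols were found for 37607 of 39179 genes. Total counts were 4251251 to 13671294.

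Groups came from the labels, and replicate numbers only name tumours. Counts were tested with edgeR 4.0.16 in R 4.3.3 (TMM, filterByExpr, robust quasi-likelihood, Benjamini-Hochberg over all genes, limit 0.05), in 1 fit of 4 treatments (13726 genes) and 1 of 6 treatment and response groups (14247 genes). Values relative to Csf1r used the log of its count as offset. Log2 CPM had a prior count of 2. Correlations were permuted with numpy 2.4.6 in Python 3.11.15. The highest r between log2 CPM of any 2 libraries was 0.984, and no 2 libraries held identical counts. Fits and correlations were tested on simulated data. Alternatives were DESeq2 1.42.0, limma-voom (limma 3.58.1), RLE normalization, no filter on low counts, the compared groups only, removal of 16 tumours with other tissue, 2 covariates, a prior count of 0.5, group means kept in the correlations and leaving out each tumour.

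The 9 genes, the lists and the limits for other tissue were chosen with earlier results of these data known. Named genes are the 9 and Csf1r, up to 3 called genes of each list, and the 3 genes most like each member, predicted genes and segments of antigen receptors left aside. The lists of skeletal muscle, skin epithelium, adipocytes, monocytes, neutrophils and conventional dendritic cells were used as checks. Promoters came from RefSeq, and entries of 5 of the 9 genes were used. Chromosome 18, where Cd14 lies, was left out of the promoters of these genes.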

Additional observations from a re-analysis of the deposited data

Results flagged for a closer look

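Among 64 groups of 4 to 10 tumours checked gene by gene for a value far from the rest, 4 values stood apart, and chance alone would mark about 1 in 20 groups. Vehicle replicate 8 lay below the other vehicle tumours for 3 genes: Ly86 at 1.586 log2 CPM, with the next tumour at 3.322, Tlr7 at 1.756, with the next at 3.455, and Tlr13 at 2.001, with the next at 3.701. The same tumour had the lowest Csf1r of the vehicle group, at 52.4 CPM. Its muscle, skin and adipocyte markers were within the limits used here. Combination replicate 2, labelled NR, had the lowest Tlr2 relative to Csf1r of its group of 4, at 1.212 on the log2 scale of counts per 100 Csf1r counts, with the next tumour at 1.813.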

How the results depend on the processing

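With TMM-scaled counts the number of the 8 genes called was 0 in 6 of the 7 tested comparisons under every setting run, leaving out each tumour included. The exception was the combination against vehicle, where removing the 16 tumours with other tissue gave 2 (Cd180 and Ly86) and leaving out 1 tumour at a time gave 0 to 1. These 2 genes were known beforehand to be higher with the combination than with anti-PD-1, and that removal called 1145 genes in all. Relative to Csf1r, that removal gave 3 (Cd14, Tlr2 and Tlr4, all lower) for the combination against vehicle. It called 9882 genes in all, where the fit of all tumours tested 13725 and called 0. These 3 calls are thus not set apart from those of genes at large. Relative to Csf1r, R against NR with anti-PD-1 alone had 1 call, which became 0 with no filter on low counts, with other tissue removed, and with the Csf1r level or the macrophage list mean as a covariate, and was 0 to 2 over the tumours left out (0 without anti-PD-1 replicate 1, 2, 4, 5, 7, 8, 10, 11, 12, 13, 14 or 15, and 2 without replicate 3). Averaged over both antibody treatments it went to 0 with other tissue removed and with either covariate, stayed 1 with no filter, and was 0 to 3 over the tumours left out: it was 0 without anti-PD-1 replicate 12 or 14 or combination replicate 2, 12 or 15. Without other tissue fewer tumours entered; in the remaining cases the cause was not tested. Calls over all genes varied more: for the combination against vehicle from 2 to 1145 across settings, against 10 in the report, and for R against NR averaged from 0 to 158, against 7. The number of genes correlated with Csf1r was 6, and 6 or 7 in 4 other settings. None of the fold changes with a call changed sign. Among all fold changes of these genes, called ones included, 48 of 573 under other settings and 98 of 2120 with 1 tumour left out did. The largest of these was 2.09 times its standard error in the main fit under other settings, and 1.01 times with 1 tumour left out. The alternatives for the combination against anti-PD-1 were chosen after seeing the data. Between the combination and anti-PD-1, 6 values moved by more than their standard error, among them Cd14 to -0.49 and Cd14 per Csf1r count to -1.07 without other tissue. No paired analysis was possible because the replicate numbers only name tumours in the order of the labels and tie none to another. Low counts limit Tlr9 and Ly96, and 4 tumours in the smallest groups limit R against NR.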
